A study of Mus musculus with 16 samples.

Results

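The monocyte-attracting CC chemokines Ccl2, Ccl6 and Ccl7 and the chemokine receptor gene Ccr2 were taken by gene name from both deposited tables of liver RNA. They are 4 of the 5205 genes listed in either table, and all 4 are among the 752 genes listed in both. Livers came from 16 male C57BL6 mice, 4 in each of 4 groups, which differed in genotype and in diet. The comparisons ask how these genes stood in the liver after a steatohepatitis diet, and whether loss of thrombospondin 1 from platelets went with another level. TSP1F/F mice carry a floxed Thbs1, the gene of thrombospondin 1, and lack Cre, and they served as littermate controls. TSP1ΔPf4 mice carry the same floxed gene together with Pf4-Cre, a transgene that drives recombination in megakaryocytes and so removes the gene from platelets. Each genotype was fed for 32 weeks either a low-fat diet (LF) or the AMLN diet, which is rich in fat, fructose and cholesterol and is used to bring about steatohepatitis. The ages of the mice are not in the labels. Pf4-Cre is meant for the megakaryocyte lineage, so Thbs1 made by other liver cells is not the intended target in TSP1ΔPf4 mice. The paper mentions Gp1ba-Cre as a driver held more strictly to that lineage. Whether Thbs1 was also lost from other cells was not tested here.

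Chemokines are small secreted proteins that guide leukocytes along a gradient. The receptor encoded by Ccr2 is carried by inflammatory monocytes, and its ligands, among them the products of Ccl2 and Ccl7, bring these cells out of the bone marrow and into injured liver, where they can become macrophages. Ccl6 encodes a rodent CC chemokine made by myeloid cells, which signals through a different receptor.

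In mm10, Ccl2 (ENSMUSG00000035385) lies on the forward strand of chromosome 11 from 82035571 to 82037453. Ccl7 (ENSMUSG00000035373) follows on the same strand from 82045712 to 82047525, 8258 bases after the end of Ccl2. Ccl6 (ENSMUSG00000018927) is on the reverse strand of the same chromosome from 83587882 to 83593087, 1.54 Mb after the end of Ccl7. Ccr2 (ENSMUSG00000049103) lies on chromosome 9 from 124101950 to 124113557 on the forward strand. The 3 ligand genes thus share a chromosome, and the receptor gene does not.

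RefSeq promoters were matched by symbol for 2 of the 4 genes, Ccl6 and Ccr2, and not for Ccl2 and Ccl7. The 250 bases before the start of Ccl6 are shown because Ccl6 had the highest level of the 4 genes in every group and was lower in the AMLN-fed TSP1ΔPf4 livers. They are at chr11:83593088-83593337 of GRCm38.p6 on the reverse strand, written 5′ to 3′, with capitals for a run of 14 bases that occurs at 2 places.
Ccl6: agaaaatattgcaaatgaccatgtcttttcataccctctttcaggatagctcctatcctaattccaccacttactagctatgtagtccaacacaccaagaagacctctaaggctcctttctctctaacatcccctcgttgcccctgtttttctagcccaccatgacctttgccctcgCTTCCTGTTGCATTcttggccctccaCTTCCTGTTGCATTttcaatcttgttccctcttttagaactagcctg
The copies of the run start 73 and 47 bases before the gene, 26 bases apart. A repeated run of that length was present in 1085 (3.30%) of 32851 RefSeq promoters of the same window. The ETS core GGAAGT, searched on both strands like all motifs here, had 1 match in the Ccl6 window, 48 bases before the gene on the opposite strand, and overlapped the copy of the run nearer to the gene. That motif was in 19.7% of all promoters. There was no match in the Ccl6 window for the C/EBP motif TTGCNNAA (in 9.56% of promoters), the AP-1 motif TGANTCA (6.75%), the STAT motif TTCNNNGAA (7.02%) or TATAAA (12.4%). The same held for the NF-kB motif, searched as GGGA and CC with 4 free bases between them (17.6%). The Ccr2 window held 0 matches of any of these motifs, and 233 of its 250 bases lie inside the annotated gene, so it is not printed.

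The tables give counts, size-factor-normalised counts and FPKM (counts scaled to gene length and to the library). They list genes selected for a diet difference at an unadjusted p under 0.05, 2558 for TSP1F/F and 3399 for TSP1ΔPf4, so a column sum is not a library's depth. Library totals were computed from counts, gene lengths and FPKM. They were 19160584, 18657299, 18135112 and 26649603 counts in LF-fed and 33053654, 22269647, 39753019 and 18362810 in AMLN-fed TSP1F/F mice, for replicates 1 to 4. In TSP1ΔPf4 mice they were 18826700, 20700888, 17127965 and 18849667 on LF and 29976419, 24319981, 31363462 and 23221536 on AMLN. In TSP1ΔPf4 mice every AMLN-fed library was larger than every LF-fed library, while in TSP1F/F mice the ranges overlapped. All levels that follow are CPM, counts scaled to this total, unless FPKM is written. A count of 0 allows up to 3 counts, which is between 0.0755 and 0.175 CPM in these libraries, and covers counting error only.

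Thbs1, the targeted gene, is listed in the TSP1F/F table alone, so its level in TSP1ΔPf4 livers cannot be given and does not check the genotype. It stood at 0.313, 1.82, 0.717 and 0.375 CPM in LF-fed and at 1.94, 3.23, 13.3 and 10.1 CPM in AMLN-fed TSP1F/F mice. The lowest mouse on AMLN was above the highest on LF. Of 10 platelet and megakaryocyte genes 2 were in the TSP1F/F table and 0 in the TSP1ΔPf4 table, so platelet content cannot be compared between genotypes. As a check of the tissue, the hepatocyte genes Ttr and Serpina1a summed to between 2695 and 5876 CPM in the AMLN-fed TSP1F/F livers, and to between 4235 and 5651 CPM in the AMLN-fed TSP1ΔPf4 livers. On LF the sums were higher, 6179 to 8424 CPM in TSP1F/F and 6873 to 8257 CPM in TSP1ΔPf4 livers, with no overlap between diets in either genotype. Ttr and Serpina1a are 2 of 8 hepatocyte genes sought. Both are listed for a diet difference in each genotype, so this gap is not independent evidence of one.

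Ccl2, the main ligand of the receptor encoded by Ccr2, had 0.574, 1.98, 1.71 and 0.263 CPM in the LF-fed TSP1F/F mice and 2.63, 5.39, 9.33 and 16.1 CPM in the AMLN-fed ones. In TSP1ΔPf4 mice it had 0, 1.01, 0.234 and 0 CPM on LF and 1.17, 1.40, 1.18 and 2.50 CPM on AMLN. In each genotype all mice on AMLN lay above those on LF, and on AMLN all TSP1ΔPf4 mice lay below the TSP1F/F mice, by a narrow gap between 2.50 and 2.63 CPM. On LF the genotypes overlapped.

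Ccl7 encodes another ligand of that receptor and was close to the limit of detection on LF. It had 0, 0, 0.607 and 0 CPM in LF-fed and 0.726, 2.11, 2.34 and 3.81 CPM in AMLN-fed TSP1F/F mice. In TSP1ΔPf4 mice it had 0, 0, 0.117 and 0.053 CPM on LF, from counts of 0, 0, 2 and 1, and 0.734, 0.082, 0.797 and 0.129 CPM on AMLN, from counts of 22, 2, 25 and 3. The AMLN-fed TSP1ΔPf4 mice therefore fell into a pair with clear counts and a pair at the level of the LF-fed mice. They overlapped the lowest AMLN-fed TSP1F/F mouse.

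Ccl6 had 5.79, 3.75, 13.1 and 3.30 CPM in LF-fed and 16.1, 23.3, 29.6 and 60.8 CPM in AMLN-fed TSP1F/F mice. In TSP1ΔPf4 mice it had 3.24, 3.24, 5.14 and 6.74 CPM on LF and 11.9, 12.0, 7.11 and 12.4 CPM on AMLN. Within each genotype the diets did not overlap, and on AMLN the genotypes did not overlap either. Replicate 3 was the lowest of the AMLN-fed TSP1ΔPf4 mice and lay just above the highest LF-fed one.

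Ccr2, the receptor gene that marks inflammatory monocytes, had 1.10, 1.34, 1.27 and 0 CPM in LF-fed and 5.32, 2.60, 8.02 and 14.8 CPM in AMLN-fed TSP1F/F mice. In TSP1ΔPf4 mice it had 0.903, 0.242, 0.759 and 2.55 CPM on LF and 3.84, 3.04, 2.14 and 4.52 CPM on AMLN. The diets did not overlap in TSP1F/F mice and overlapped in TSP1ΔPf4 mice, where 1 LF-fed mouse was above the lowest AMLN-fed mouse. On AMLN the genotypes overlapped. Replicate 4 of the AMLN-fed TSP1F/F mice was the highest of its group for all 4 genes, and its library was the smallest of the group.

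**Figure D1:**
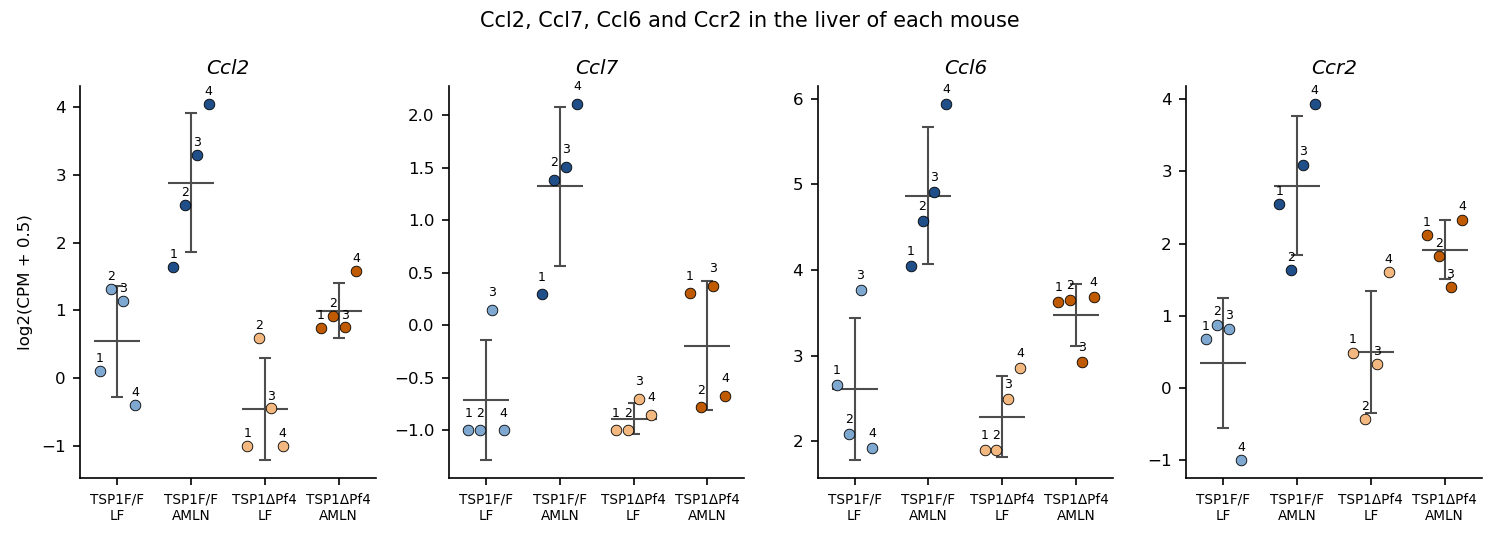
Levels of Ccl2, Ccl7, Ccl6 and Ccr2 in each mouse as log2(CPM + 0.5), with the replicate number at each point and the group mean and SD (n = 4 mice) as bars. The AMLN-fed TSP1F/F mice spread widely, and their replicate 4 is the highest point in all 4 panels.

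Per length, Ccl6 was the most abundant of the 4 genes in every group. In AMLN-fed TSP1F/F mice, mean FPKM was 18.1 ± 11.0 (SD, n = 4) for Ccl6, 7.34 ± 5.12 for Ccl2, 2.81 ± 1.58 for Ccl7 and 1.14 ± 0.771 for Ccr2. In AMLN-fed TSP1ΔPf4 mice it was 6.04 ± 1.39 for Ccl6, 1.37 ± 0.557 for Ccl2, 0.544 ± 0.477 for Ccl7 and 0.501 ± 0.152 for Ccr2 (SD, n = 4). On LF, Ccl6 was at 3.61 ± 2.52 FPKM in TSP1F/F and 2.56 ± 0.941 FPKM in TSP1ΔPf4 mice (SD, n = 4), with each other gene under 1 FPKM on average. By group means the order was Ccl6, Ccl2, Ccl7 and Ccr2 in 3 groups, and in the LF-fed TSP1ΔPf4 mice Ccr2 stood above Ccl7. The place of Ccl7 above Ccr2 held in 4 of 4 AMLN-fed TSP1F/F mice, in 2 of 4 AMLN-fed TSP1ΔPf4 mice and in 1 of 4 LF-fed TSP1F/F mice, replicate 3, so on LF it rests on that mouse. Among neighbours in this order, ranges were apart for Ccl6 and Ccl2 in 3 groups, the AMLN-fed TSP1F/F mice being the exception, and for Ccl2 and Ccl7 in the AMLN-fed TSP1ΔPf4 mice. All other neighbours overlapped.

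The first comparison asks how the AMLN diet went with these genes in mice whose platelets can make thrombospondin 1. In TSP1F/F livers all 4 genes were higher on AMLN in 4 of 4 mice, and mean CPM was 7.38 times that on LF for Ccl2, 14.8 times for Ccl7, 5.01 times for Ccl6 and 8.29 times for Ccr2. Groups that do not overlap in that direction were found for 36.6% of the 2096 genes tested. For each of the 4 genes a two-sided exact permutation test gave p = 0.0286, the smallest that 4 mice against 4 allow. In bulk tissue, fewer cells of a type and less RNA per cell cannot be told apart. Because the tables list genes for their diet difference, these values describe the genes and are not independent evidence of it.

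With edgeR's quasi-likelihood test, a gene was called at a Benjamini-Hochberg adjusted p under 0.05 and an absolute log2 fold change above 0.25. All 4 genes passed the filter on low counts and 0 of 4 were called, beside 2.39% of genes called higher and 0.0954% called lower. Ccl2, Ccl7 and Ccr2 passed it through the AMLN group, since their lowest counts on LF were 7, 0 and 0. All 4 had an unadjusted p under 0.05, as 1680 of the 2096 genes did, and DESeq2 called Ccl2, Ccl6 and Ccr2. Over all genes the edgeR calls were 50 higher and 2 lower, and those of DESeq2 285 higher and 456 lower, so the balance depends on the tool. The log2 fold change was 2.89 (SE 0.73) for Ccl2, 3.90 (SE 1.29) for Ccl7, 2.32 (SE 0.53) for Ccl6 and 3.06 (SE 0.91) for Ccr2, against a median of 1.15 over all genes tested. The adjusted p (edgeR's quasi-likelihood F test, Benjamini-Hochberg) was 0.153, 0.292, 0.109 and 0.232 in that order. The adjustment covered the 16784 genes behind the table, with unlisted genes as not called. When it covered the genes tested alone, all 4 genes were called. LF-fed TSP1F/F replicate 3 held the only Ccl7 counts of its group, so the 14.8-fold difference and the 3.90 of Ccl7 rest on that mouse. Without it the fitted value was 8.83, against a group at 0, which is no measure of size, and Ccl6 was called with a log2 fold change of 2.92.

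The diet was then compared in mice whose platelets lack thrombospondin 1. In TSP1ΔPf4 livers mean CPM on AMLN was 5.0 times that on LF for Ccl2, 2.36 times for Ccl6 and 3.04 times for Ccr2. For Ccl7 the 4 AMLN-fed livers held 52 counts and the 4 LF-fed livers 3, a ratio of summed levels of 12.0 with a 95% counting interval of 3.89 to 60.2. Ccl2 and Ccl6 did not overlap between diets, as for 20.4% of the 3089 genes tested, with p = 0.0286 each in a two-sided exact permutation test. Ccl7 and Ccr2 overlapped and had p = 0.0571 in the exact permutation test, with 3 of 4 AMLN-fed mice above every LF-fed mouse.

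The filter on low counts passed 3 of the 4 genes and left out Ccl7. Ccl2 and Ccr2 passed it through the AMLN group, since their lowest counts on LF were 0 and 5. With edgeR's quasi-likelihood test 0 of 3 were called, beside 1.46% of genes called higher and 1.52% called lower, while all 3 had an unadjusted p under 0.05, as 2649 of the genes tested did. DESeq2 called Ccl6 and Ccr2. Over all genes 45 were called higher and 47 lower, against 160 and 38 with TMM and 1010 and 366 with DESeq2, so the even balance was not kept under either. The log2 fold change was 2.26 (SE 0.90) for Ccl2, 1.24 (SE 0.31) for Ccl6 and 1.60 (SE 0.57) for Ccr2, against a median of -0.54 over all genes tested. The adjusted p (edgeR's quasi-likelihood F test, Benjamini-Hochberg) was 0.200, 0.0793 and 0.159. TMM scaling also gave a call for Ccl6, at 1.58. Without LF-fed TSP1ΔPf4 replicate 2, which had 21 counts of Ccl2 (0 to 4 in the others of its group), Ccl2 was at 4.30, and without LF-fed replicate 4 Ccr2 was at 2.42, neither called.

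The comparison of genotypes on AMLN asks whether loss of thrombospondin 1 from platelets went with another level in the steatohepatitis liver. Mean CPM in TSP1ΔPf4 livers was 0.187 of that in TSP1F/F livers for Ccl2, 0.194 for Ccl7, 0.334 for Ccl6 and 0.441 for Ccr2. Ccl2 and Ccl6 were lower in 4 of 4 mice with no overlap, as were 12.4% of the 733 genes tested, and had p = 0.0286 each in a two-sided exact permutation test. Ccl7 and Ccr2 overlapped, with exact permutation p = 0.0857 and 0.143. This contrast was not itself what selected genes for the tables, but it covers only genes that are in both. The AMLN-fed mice compared here also entered that selection, each genotype against its LF-fed mice. Ccl2, Ccl7, Ccl6 and Ccr2 were chosen with earlier results of these data known, so their p-values are not free of selection.

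All 4 genes passed the filter here. Ccl7 did so through its counts in AMLN-fed TSP1F/F mice, with 22, 2, 25 and 3 counts in the AMLN-fed TSP1ΔPf4 mice. Ccl2 fell by 2.42 on the log2 scale (SE 0.55, adjusted p = 0.0182) and Ccl6 by 1.58 (SE 0.40, adjusted p = 0.0272) in the quasi-likelihood test of edgeR with Benjamini-Hochberg adjustment. These are 2 of 4 genes called lower, beside 8.46% of all genes tested, and 0 of 4 were called higher, beside 0.546%. Over all genes 4 were called higher and 62 lower, against 11 and 37 with TMM and 17 and 56 with DESeq2, so the 8.46% used below depends on the scaling. Ccl7 had a log2 fold change of -2.32 (SE 0.78) and Ccr2 of -1.18 (SE 0.49), with adjusted p of 0.0923 and 0.152 by the same edgeR quasi-likelihood test and Benjamini-Hochberg adjustment. The median of all genes was -0.38 with library totals, -0.10 with TMM and -0.03 in DESeq2. Relative to the median with library totals, the differences were -2.04 for Ccl2, -1.94 for Ccl7, -1.20 for Ccl6 and -0.80 for Ccr2.

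The calls depended on single mice and settings. Ccl2 was no longer called without TSP1F/F AMLN replicate 3 (log2 fold change -2.36) or TSP1ΔPf4 AMLN replicate 1 (-2.30), 2 (-2.37) or 3 (-2.31), nor with all 16 mice in 1 fit (-2.42). Ccl6 was not called without TSP1F/F AMLN replicate 3 (-1.62) or 4 (-1.08), or TSP1ΔPf4 AMLN replicate 1 (-1.63), 2 (-1.63) or 3 (-1.42), nor with TMM scaling (-1.26). Ccr2 was called only without TSP1F/F AMLN replicate 2 (-1.47), which had the lowest Ccr2 of its group. The number of genes called, 66 with all mice, was 22 to 84 with each mouse left out. It moved by over 1.5 times without TSP1F/F AMLN replicate 3 (36), or TSP1ΔPf4 AMLN replicate 1 (33), 2 (22) or 3 (30). Each of the 4 genes kept a negative fold change in all of these fits.

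**Figure D2:**
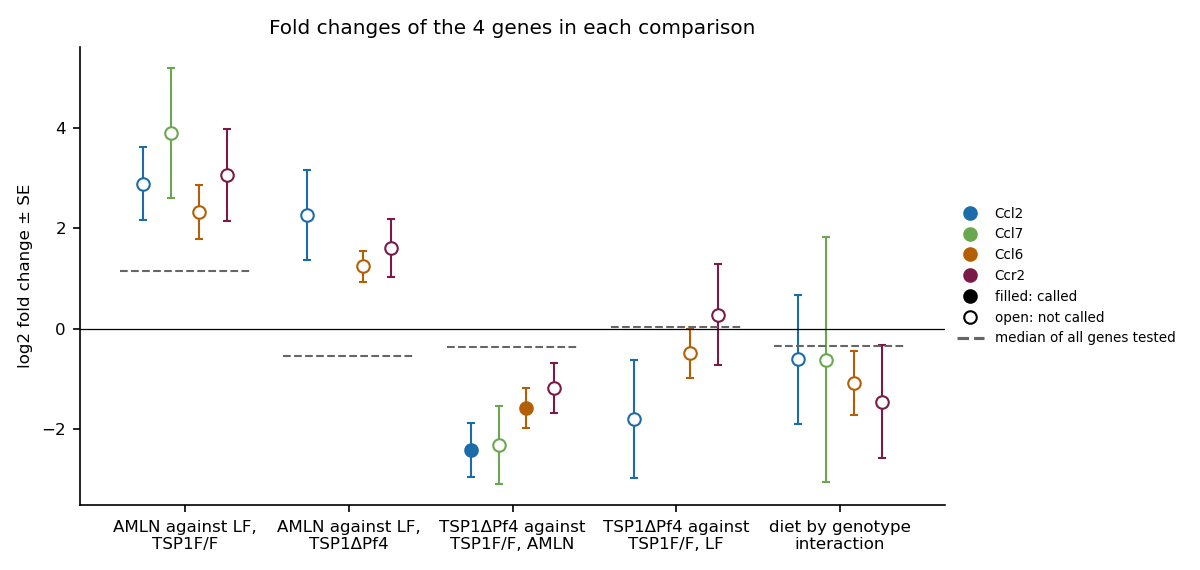
Log2 fold change ± SE of Ccl2, Ccl7, Ccl6 and Ccr2 in each comparison, with filled points for called genes and a dashed line at the median of all genes tested. Only Ccl2 (-2.42) and Ccl6 (-1.58) on AMLN are filled.

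**Figure D3:**
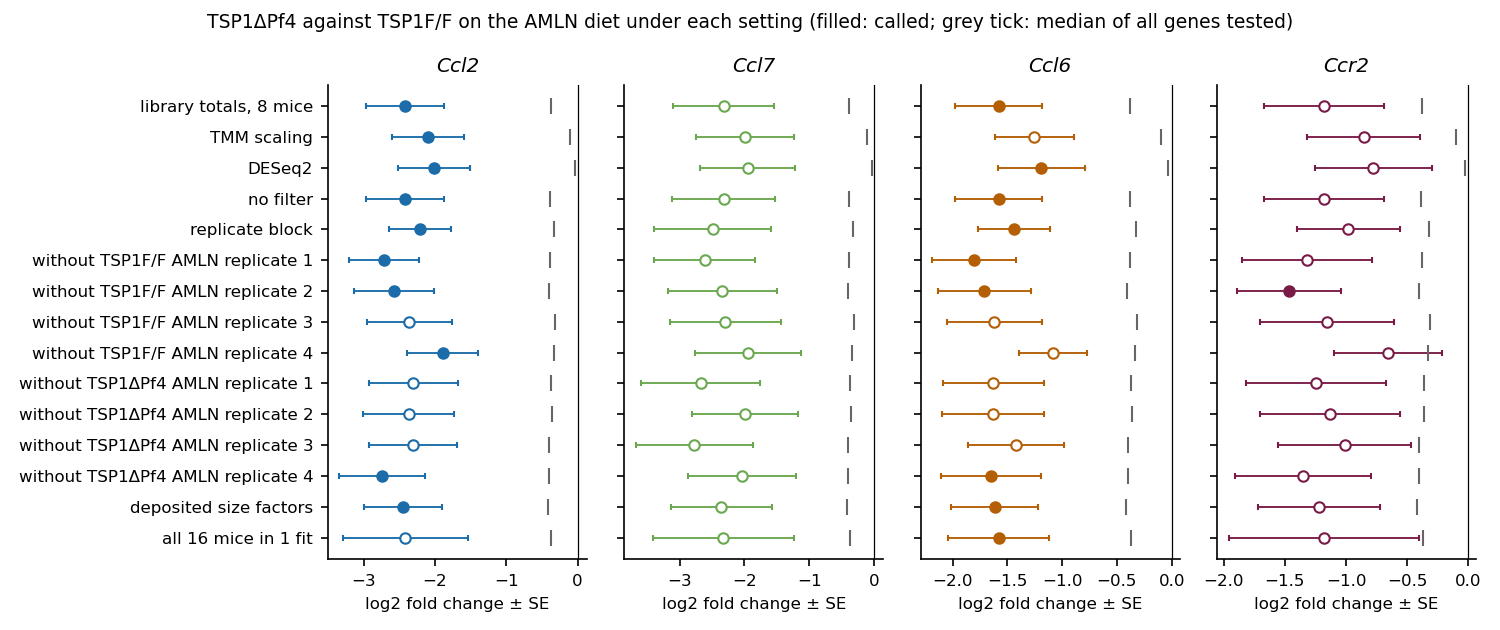
Log2 fold change ± SE of each gene for TSP1ΔPf4 against TSP1F/F on AMLN under each setting, with filled points for calls and a grey tick at the median of all genes tested. Every point lies below 0, and Ccl6 is nearest to 0 without TSP1F/F AMLN replicate 4 (-1.08).

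On LF the genotypes were compared as a background without the steatohepatitis diet. Mean CPM in TSP1ΔPf4 livers was 0.276 of that in TSP1F/F livers for Ccl2, 0.708 for Ccl6 and 1.20 times it for Ccr2. For Ccl7 there were 11 counts in TSP1F/F and 3 in TSP1ΔPf4 livers, a ratio of 3.35 with a 95% counting interval of 0.885 to 18.7. All 4 genes overlapped between genotypes, with exact permutation p of 0.114 for Ccl2, 1 for Ccl7, 0.543 for Ccl6 and 0.8 for Ccr2, so 0 of 4 were apart in that direction, beside 1.56% of the 640 genes tested. With edgeR's quasi-likelihood test 0 of the 3 genes that passed the filter were called, and over all genes tested 0.0% were called higher and 0.0% lower. An unadjusted p under 0.05 was reached by 44 genes and by none of the 3, and DESeq2 called 1 gene. Ccl2 had a log2 fold change of -1.81 (SE 1.18), which was -3.80 without TSP1ΔPf4 LF replicate 2 and -1.39 without TSP1F/F LF replicate 2. That of Ccl6, -0.50 (SE 0.48), turned to 0.10 without TSP1F/F LF replicate 3. That of Ccr2, 0.28 (SE 1.01), turned to -0.15 without TSP1F/F LF replicate 4 and to -0.53 without TSP1ΔPf4 LF replicate 4.

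Whether the response to the diet differed between genotypes was tested by the interaction term over 16 mice. It was -0.62 (SE 1.29) for Ccl2, -0.62 (SE 2.44) for Ccl7, -1.09 (SE 0.65) for Ccl6 and -1.46 (SE 1.13) for Ccr2 on the log2 scale, against a median of -0.34. In the quasi-likelihood test of edgeR with Benjamini-Hochberg adjustment, 0 of 4 genes were called (adjusted p 0.928, 0.964, 0.486 and 0.672), beside 0.0% of 734 genes called higher and 0.409% called lower. An unadjusted p under 0.05 was reached by 110 of the 734 genes and by none of the 4. Here too Ccl7 passed the filter through the AMLN-fed TSP1F/F mice. Over all genes 0 were called higher and 3 lower, against 8 and 7 with TMM and 12 and 32 with DESeq2, so the direction depends on the scaling and the tool. The term ranged from -1.68 to -0.59 for Ccl6 and from -1.80 to -0.65 for Ccr2 with 1 mouse left out. It changed sign for Ccl2 without TSP1ΔPf4 LF replicate 2 (1.40) and for Ccl7 without TSP1ΔPf4 LF replicate 3 (0.41). A smaller diet response in TSP1ΔPf4 mice was thus not shown for any of the 4 genes.

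To describe how the 4 genes varied together among mice of the same group, each group's mean was subtracted from log2(CPM + 0.5) and the 6 pairs were correlated over 16 mice. Ccl6 and Ccr2 had Pearson's r = 0.690 (permutation p = 0.0216, adjusted over the 6 pairs 0.129) and Spearman's rho = 0.671 (permutation p = 0.0160, adjusted 0.0958). Without the 2 mice farthest from the median, r was 0.548, and within the 4 groups it was between 0.537 and 0.878. Ccl7 and Ccl6 had r = 0.611 (permutation p = 0.0430, adjusted 0.129) and rho = 0.427 (permutation p = 0.148), with r = 0.438 without the same 2 mice, AMLN-fed TSP1F/F replicates 3 and 4. Within groups the r of Ccl7 and Ccl6 was 0.927 and 0.926 in LF-fed and AMLN-fed TSP1F/F mice. It was 0.712 and -0.645 in LF-fed and AMLN-fed TSP1ΔPf4 mice.

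The r of Ccl2 was 0.490 with Ccl6 (permutation p = 0.138, rho 0.418), 0.439 with Ccl7 (permutation p = 0.168, rho 0.373) and 0.355 with Ccr2 (permutation p = 0.289, rho 0.402). Without the 2 mice these became 0.219, 0.169 and 0.0281, and without LF-fed TSP1ΔPf4 replicate 2 alone 0.664, 0.526 and 0.641, so they hang on single mice in both directions. Within groups the r of Ccl2 and Ccr2 was 0.817 and 0.719 in LF-fed and AMLN-fed TSP1F/F mice, and -0.831 and 0.674 in LF-fed and AMLN-fed TSP1ΔPf4 mice. Ccl7 and Ccr2 had r = 0.264 (permutation p = 0.399, rho 0.205) and -0.0445 without the 2 mice. None of the 6 pairs had an adjusted p under 0.05.

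**Figure D4:**
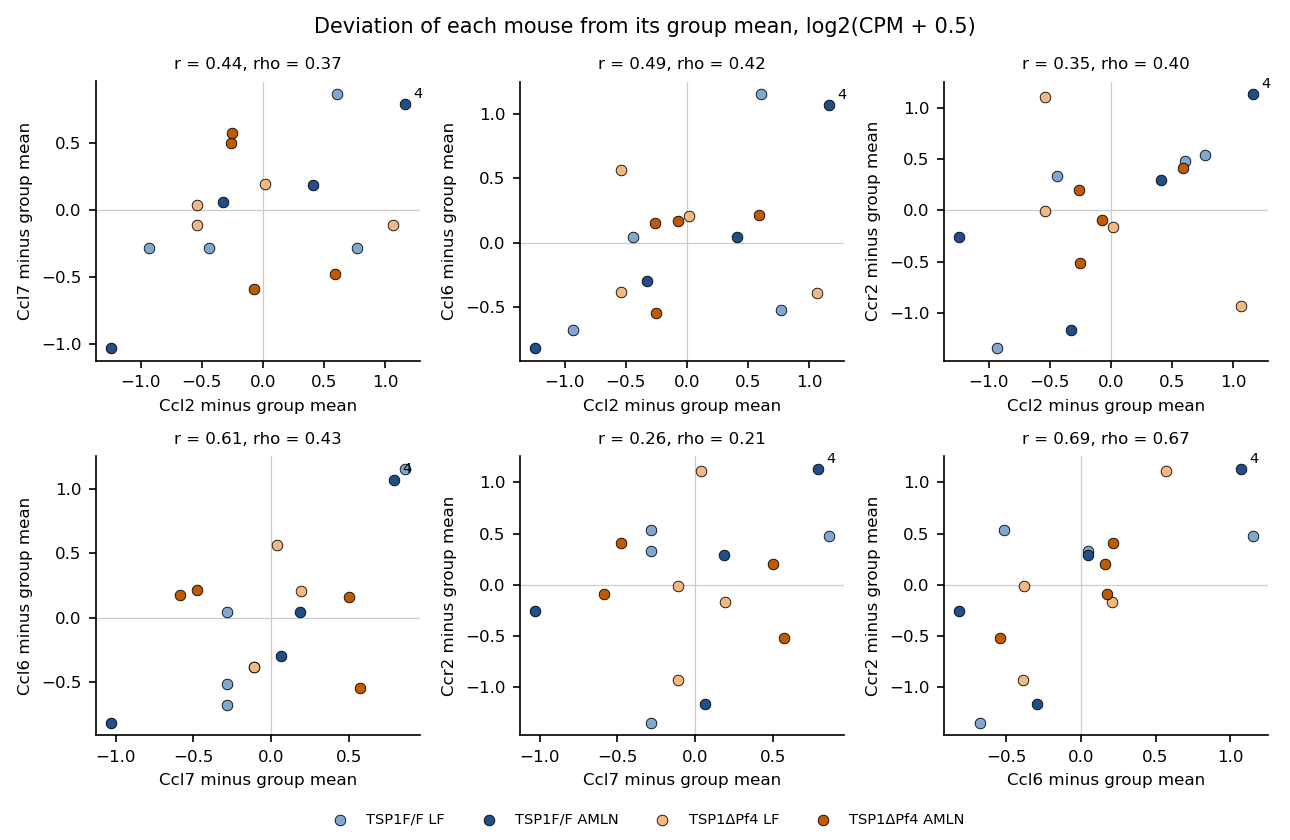
Deviation of each of the 16 mice from its group mean in log2(CPM + 0.5) for the 6 pairs of genes, coloured by group, with replicate 4 of the AMLN-fed TSP1F/F mice marked. Ccl6 and Ccr2 (r = 0.690) lie closest to a line.

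Beside the library totals, all treated the same way, the CPM of the 4 genes had negative r over 16 mice. They were -0.436 for Ccl2, -0.234 for Ccl7, -0.566 for Ccl6 and -0.390 for Ccr2, with permutation p of 0.226, 0.605, 0.0804 and 0.255, and 0.340, 0.605, 0.322 and 0.340 adjusted over the 4 genes. Spearman's rho was -0.464, -0.142, -0.638 and -0.385 with permutation p of 0.145, 0.693, 0.0189 and 0.219, and the smallest adjusted value was 0.0756 for Ccl6. Without AMLN-fed TSP1F/F replicates 1 and 3, r was -0.534, 0.0534, -0.639 and -0.714. Without AMLN-fed TSP1F/F replicate 4 alone it was -0.201, 0.0589, -0.353 and -0.155, so the size of the relation depends on which mice are in. CPM holds the library total as its divisor, and the counts themselves had r of -0.0851 for Ccl2, -0.00565 for Ccl7, -0.127 for Ccl6 and -0.293 for Ccr2. Without the same 2 mice the counts had r of -0.215, -0.0174, -0.404 and -0.743 in that order, so for Ccr2 the relation was as large in the counts as in CPM. No gene passed 0.05 after adjustment, and the part of depth in the levels was not tested further.

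The genes whose pattern over the 16 mice was most like each of the 4 were sought among 733 genes in both tables, as a description. For Ccl2 they were Clec7a (r = 0.934), Mmp12 (0.909), Glipr2 (0.907), Ms4a6d (0.905) and Cd300c2 (0.902), where the median of all genes was 0.450. For Ccl7 they were Cd300lb (0.959), Mmp12 (0.914), Col3a1 (0.910), Fcgr1 (0.909) and Glipr1 (0.902), and for Ccl6 Gdf3 (0.954), Fcgr1 (0.952), C3ar1 (0.95), Slfn2 (0.946) and Cd300lb (0.942). For Ccr2 they were Lrrc25 (0.913), H2-Eb1 (0.911), H2-Ab1 (0.911), Gdf3 (0.905) and Ear2 (0.897). The median r over all genes was 0.474 for Ccl7, 0.459 for Ccl6 and 0.522 for Ccr2. Clec7a encodes a receptor for fungal glucans, Fcgr1 a receptor for antibodies, and H2-Eb1 and H2-Ab1 class II antigen-presenting molecules. Differences between diets enter these values.

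After subtraction of group means, the genes most like Ccl2 were Insig1 (0.802), Vsig4 (0.763), Fos (0.762), Mmp12 (0.758) and Marcks (0.751). For Ccl7 they were Cd300lb (0.915), Cib3 (0.775), Eda2r (0.718), Lpl (0.713) and Dram1 (0.696). Ccl6 went most closely with Cd44 (0.844), Gdf3 (0.844), C3ar1 (0.842), Adgre1 (0.83) and Slfn2 (0.802), and Ccr2 with Fam180a (0.803), H2-Eb1 (0.779), Tlr2 (0.758), Cd53 (0.719) and Lrrc25 (0.715). The median r over all genes was 0.155 for Ccl2, 0.119 for Ccl7, 0.131 for Ccl6 and 0.0882 for Ccr2. In these orders Ccl6 was number 8 for Ccr2, and Ccr2 was number 38 for Ccl6.

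Of 22 CC chemokine ligands, 9 were in either table. Ccl3, Ccl4, Ccl5 and Ccl12 were in the TSP1F/F table alone, and Ccl9 and Ccl27a in the TSP1ΔPf4 table alone. With edgeR's quasi-likelihood test 0 of 4 tested ligands were called for diet in TSP1F/F and 0 of 4 in TSP1ΔPf4 mice, beside 2.39% and 1.46% of all genes called higher and 0.0954% and 1.52% called lower, with median log2 fold changes of 2.61 and 0.05 beside 1.15 and -0.54 over all genes. All had an unadjusted p under 0.05, as 1680 of 2096 and 2649 of 3089 genes did. DESeq2, with 741 and 1376 calls over all genes, called Ccl2 and Ccl6 in TSP1F/F mice, and Ccl6, Ccl9 and Ccl27a in TSP1ΔPf4 mice. On AMLN 2 of 3 were called lower, beside 8.46% of all genes, and these are Ccl2 and Ccl6 again. Of the 4 ligands of the receptor encoded by Ccr2, Ccl12 had 0, 0.045, 0.453 and 0.871 CPM in AMLN-fed TSP1F/F mice and Ccl8 was in neither table. In TSP1ΔPf4 mice Ccl9, a myeloid chemokine, had 62.5, 44.7, 122 and 58.4 CPM on LF and 32.4, 24.0, 29.4 and 44.6 CPM on AMLN, so it ran the other way from Ccl6.

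Among 19 genes of leukocyte chemokine receptor signalling, 15 were tested for diet in TSP1F/F mice, and 1 rose, Rac2, a small GTPase of cell movement, by 2.96 (adjusted p = 0.0311, quasi-likelihood test of edgeR with Benjamini-Hochberg adjustment). That is 1 of 15, beside 2.39% of all genes called higher. Rac2 lost its call without LF replicate 2 (2.99) or 4 (2.82), or AMLN replicate 1 (2.87), 2 (3.03) or 3 (2.78). The median of the 15 was 2.27, beside 1.15 over all genes. In TSP1ΔPf4 mice 0 of 7 were called for diet, with all 7 above 0 and a median of 1.35, beside -0.54. On AMLN their median for genotype was -0.65 over 7 genes, beside -0.38.

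Among 16 inducers and regulators of Ccl2, 3 were tested for genotype on AMLN and 1 fell, Fos, by 2.71 (adjusted p = 0.0232, quasi-likelihood test of edgeR with Benjamini-Hochberg adjustment). That is beside 8.46% of all genes called lower. Fos was not called without TSP1F/F AMLN replicate 3 (-1.70) or TSP1ΔPf4 AMLN replicate 1 (-2.54), 2 (-2.87) or 3 (-2.51). Of 17 other chemokines, 1 of 3 fell on AMLN, beside the same 8.46%, Cxcl5, a neutrophil attractant with 9 to 44 counts in AMLN-fed TSP1F/F mice and 0 in each AMLN-fed TSP1ΔPf4 mouse. It passed the filter through its counts in the first of these groups, was called in the 6 fits with a mouse left out that kept it, and was filtered out of the other 2. Of 9 other chemokine receptors, 1 was tested, Cx3cr1, with a log2 fold change of -0.99.

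Markers of liver cells were followed beside the 4 genes. The monocyte list had 10 of 12 genes in either table, and 1 of 5 tested fell on AMLN in TSP1ΔPf4 mice, beside 8.46% of all genes, Lyz2, the lysozyme of myeloid cells, by 2.51 (adjusted p = 0.0162, quasi-likelihood test of edgeR with Benjamini-Hochberg adjustment). Csf1r of this list, a growth factor receptor of monocytes and macrophages, was at 0.18 in that comparison and was not called, and the median of the list was -1.18. For diet Csf1r rose by 2.40 in TSP1F/F and by 1.79 in TSP1ΔPf4 mice (adjusted p = 0.0182 and 0.0227, same edgeR test and adjustment). That is 1 of 8 and 1 of 5 monocyte genes tested, beside 2.39% and 1.46% of all genes called higher. DESeq2 called 4 of 8 and 4 of 5, beside 741 of 2096 and 1376 of 3089 over all genes. In TSP1F/F mice Csf1r lost the edgeR call without LF replicate 1 (2.41), 2 (2.32) or 4 (2.56) or AMLN replicate 1 (2.38) or 3 (2.16). In TSP1ΔPf4 mice it did so without LF replicate 2 (1.73) or 4 (1.87) or AMLN replicate 2 (1.65) or 3 (1.75).

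Beside 8.46% of all genes called lower on AMLN, 6 of 9 in the list of monocyte-derived macrophages fell, Trem2 by 3.06, Gpnmb by 2.41, Clec7a by 3.42, Mmp12 by 3.71, Lgals3 by 1.69 and Lyz2. Without TSP1ΔPf4 AMLN replicate 2, Lyz2 (-2.38) and Lgals3 (-1.61) lost their calls, while the other 4 were called with each mouse left out. The differences of all 6 were smaller without TSP1F/F AMLN replicate 4, where Clec7a was at -2.15, Trem2 at -2.22, Mmp12 at -3.06, Gpnmb at -2.13, Lgals3 at -1.31 and Lyz2 at -1.59. The median of that list was -2.41, beside -0.38 over all genes. For diet in TSP1F/F mice 4 of 10 rose, beside 2.39% of all genes, Gpnmb by 7.70, Itgax by 5.47, Trem2 by 4.71 and Lgals3 by 3.41. On LF Gpnmb had 0, 0, 4 and 12 counts in these mice and Itgax 0, 4, 0 and 8. Both passed the filter through the AMLN group, so their fold changes are no measure of size. Trem2 (4.66) and Lgals3 (3.36) lost their calls without LF replicate 4, Lgals3 also without AMLN replicate 3 (3.38), and Itgax without each of the 8 mice in turn (5.09 to 6.35). In TSP1ΔPf4 mice 2 of 9 rose, beside 1.46% of all genes, Gpnmb by 5.09 and Mmp12 by 3.45, and both lost their calls without LF replicate 4 (5.35 and 3.32). Here Gpnmb had 3, 7, 0 and 6 counts on LF. It passed the filter through the AMLN group, so its fold change is no measure of size. All 10 and all 9 had an unadjusted p under 0.05, and DESeq2 called 7 of 10 and 9 of 9. Over all genes an unadjusted p under 0.05 was reached by 1680 of 2096 and 2649 of 3089, and DESeq2 called 741 and 1376 of them in either direction.

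The summed CPM of the 4 monocyte genes in both tables other than Ccr2, of which Lyz2 makes up 90.6%, was 291, 395, 420 and 1538 in AMLN-fed TSP1F/F and 137, 127, 125 and 203 in AMLN-fed TSP1ΔPf4 mice. The 9 genes of monocyte-derived macrophages, 63.5% Lyz2, summed to 448, 566, 696 and 2417 and to 166, 144, 158 and 250 CPM. On these sums the genotypes did not overlap, and replicate 4 of the AMLN-fed TSP1F/F mice, highest for Ccl2, Ccl7, Ccl6 and Ccr2, was highest too. The 3 Kupffer cell genes, 86.9% Cd5l, summed to 220, 222, 265 and 584 and to 136, 141, 123 and 162 CPM. None of the genes in these 3 sums was at 0 throughout a group. The part of the number of myeloid cells in the lower Ccl2 and Ccl6 was not tested.

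**Figure D5:**
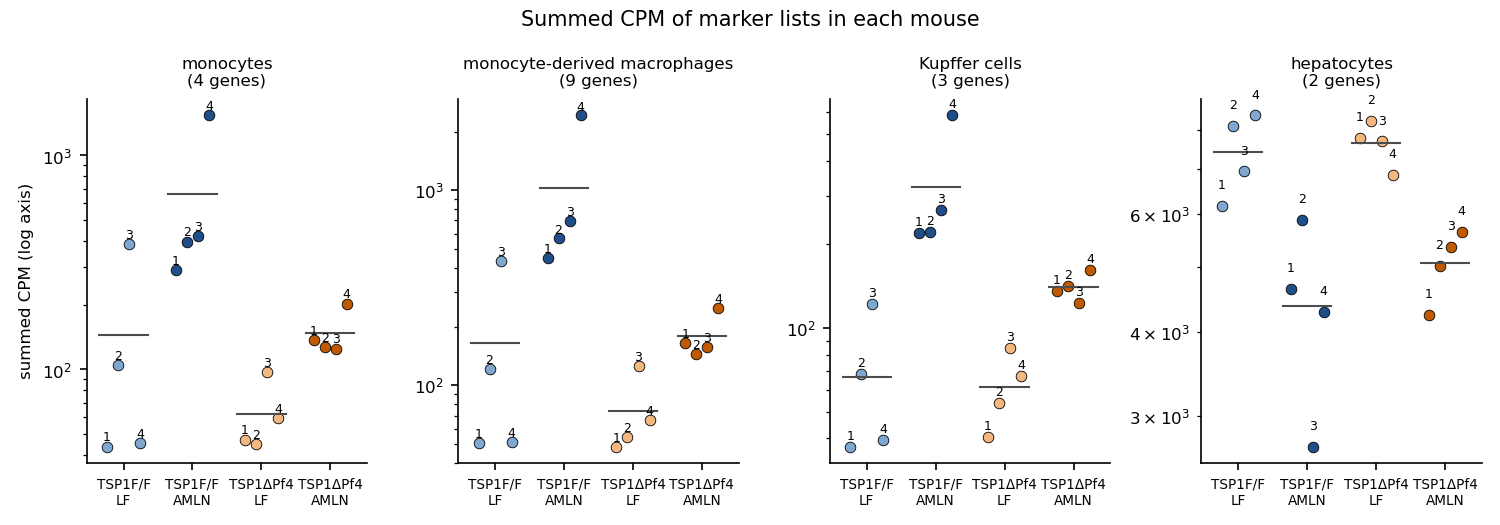
Summed CPM (log axis) of monocyte, monocyte-derived macrophage, Kupffer cell and hepatocyte genes in each mouse, numbered by replicate, with a line at the group mean. Replicate 4 of the AMLN-fed TSP1F/F mice stands at 1538, 2417 and 584 CPM in the 3 myeloid panels.

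Of other cell types, 1 of 3 Kupffer cell genes, Cd5l, and 1 of 5 stellate cell genes, Col3a1, fell on AMLN in TSP1ΔPf4 mice, by 1.31 and 1.72, beside 8.46% of all genes. The Kupffer cell genes ranged from -1.31 to 1.62, the highest being Cd163, which was not called. Their median was -0.41 and the stellate cell median -0.14, beside -0.38 over all genes. Col3a1 was not called without TSP1F/F AMLN replicate 3 (-1.62) or TSP1ΔPf4 AMLN replicate 2 (-1.71). DESeq2 called Col3a1 but none of the 3 Kupffer cell genes. Cd5l kept its call only without TSP1F/F AMLN replicate 1 or 2, and was at -0.84 without TSP1F/F AMLN replicate 4. The only gene of the neutrophil list in both tables, Lcn2, had 377, 38.1, 76.3 and 71.9 CPM in AMLN-fed TSP1F/F and 90.2, 24.0, 30.6 and 17.7 CPM in AMLN-fed TSP1ΔPf4 mice, highest in replicate 1 of each. In TSP1F/F mice Lcn2 made up 94.2% of the summed CPM of the 5 neutrophil-list genes present. Whether Lcn2 came from neutrophils was not tested. For diet in TSP1F/F mice Timp1, Col3a1 and Col1a2 of the stellate cell list and Cd8a of the T and NK cell list were called higher, beside 2.39% of all genes, and of 8 fits with a mouse left out 4, 4, 1 and 0 kept the call. On LF Timp1 had 0 counts in each of these mice and Cd8a 0, 0, 1 and 0, so both passed the filter through the AMLN group, and their fold changes are no measure of size. In TSP1ΔPf4 mice Lcn2 and Vsig4 were called higher, beside 1.46% of all genes, in 3 and 2 of 8 such fits. Of the 3 Kupffer cell genes tested there, 2 lay above 0 and 1 below. The lower one was Cd163 at -1.79, which DESeq2 called and edgeR did not. For diet the hepatocyte medians were -0.83 over 4 genes in TSP1F/F and -0.73 over 3 genes in TSP1ΔPf4 mice, beside 1.15 and -0.54 over all genes. Of these genes edgeR called none, beside 0.0954% and 1.52% of all genes called lower. DESeq2 called 3 of 4 and 1 of 3, beside 456 of 2096 and 366 of 3089 genes called lower. The hepatocyte genes thus went the other way from the 4 genes on AMLN, and the part of this in the diet differences was not tested. The hepatocyte median for genotype on AMLN was 0.21 and that of endothelium 0.12. Genes of B cells, dendritic cells, cholangiocytes and platelets were not in both tables, so the genotypes could not be compared on them.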

How the data were processed

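Liver RNA of 16 mice was sequenced, 4 per group. The deposited counts are reads per gene, made by the authors on mm10. The aligner is given as STAR in the paper and as HISAT2 in the sample notes, and the counting program and strand setting are not given in the sources used here. The deposited signal values are counts divided by a size factor per library, and the deposited FPKM come from counts, gene length and a library total. The log2 fold changes and p-values deposited by the authors, from DESeq2, were not used as results for any gene. The deposited p-values were used for the limit at which genes were listed, an unadjusted p under 0.05. With the deposited adjusted p-values they also gave the number of genes behind each table, 16784 for TSP1F/F and 13927 for TSP1ΔPf4. Those numbers enter the adjustment for diet below.

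Library totals were computed from counts, lengths and FPKM. After filterByExpr, genes went into the quasi-likelihood F test of edgeR 4.0.16 under R 4.3.3 with a prior count of 0.125, with 1 pair of groups in a fit, or 16 mice for the interaction. The Benjamini-Hochberg adjustment covered 16784 (TSP1F/F) and 13927 (TSP1ΔPf4) genes for diet, and the genes tested for genotype and interaction. Single genes were compared by exact permutation tests on log2(CPM + 0.5), and correlations by 100000 permutations within groups. Alternatives were TMM, DESeq2 1.42.0, no filter, a replicate block, another adjustment, all 16 mice in 1 fit, each mouse left out, and deposited size factors, the last chosen after seeing the data. The test was tested on simulated data.

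Members and lists were chosen with earlier results of these data known. Named were the 4 genes, the list genes and the 5 genes most like each member. Counts of the 4 genes range from 0 to 1177, and the low ones carry counting error besides the spread between mice.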

Additional observations from a re-analysis of the deposited data

Results flagged for a closer look

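In 9 of 54 groups of 4 mice checked, the highest or lowest mouse was further from the others than Dixon's 95% limit. Chance puts about 1 in 20 groups past it where values are free to vary and sums share no gene, which is not so for all of these. In 2 of the 9 the other 3 mice are at 0, which passes the limit at any value of the highest mouse, so the limit says nothing there. The first of these is Ccl7, at 0.607 CPM in 1 LF-fed TSP1F/F mouse and 0 in the other 3. Ccl6 was 7.11 CPM in the lowest AMLN-fed TSP1ΔPf4 mouse, with the others at 11.9 to 12.4. The library total of 1 LF-fed TSP1F/F mouse was 26649603, with the others at 18135112 to 19160584.

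In AMLN-fed TSP1F/F replicate 4 the summed CPM was 1538 for monocyte genes (others 291 to 420), 2417 for monocyte-derived macrophage genes (448 to 696) and 584 for Kupffer cell genes (220 to 265). Lyz2 is in the first 2 sums, so these are not separate observations. In AMLN-fed TSP1F/F replicate 1, Lcn2 of the neutrophil list was 377 CPM (38.1 to 76.3). The monocyte sum was 203 CPM in 1 AMLN-fed TSP1ΔPf4 mouse (125 to 137). The other group with 3 mice at 0 is the sum of T and NK cell genes, 0.425 CPM in 1 LF-fed TSP1ΔPf4 mouse and 0 in the others. What set these mice apart was not tested.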

How the results depend on the processing

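The diet counts of genes called moved most, and the cause was not tested. In TSP1F/F mice 52 genes were called, and 741 with DESeq2, 83 without the filter, 10 with a replicate block and 1124 when adjusted over the genes tested. In TSP1ΔPf4 mice 92 were called, and 198 with TMM, 1376 with DESeq2, 4 with a replicate block and 2187 when adjusted over the genes tested. For genotype on AMLN the block gave 116 in place of 66. On LF DESeq2 gave 1. For the interaction, TMM gave 15, DESeq2 44, the block 0 and the deposited size factors 8. The labels do not state whether replicate numbers pair mice. On AMLN, libraries with the same number had r of 0.278, 0.0928, 0.313 and 0.387 across genotypes, and 3 of 4 matched best with their own number, as did 2 of 4 on LF, and between diets 1 of 8 did.

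Genes past the threshold only under an alternative were, for diet in TSP1F/F mice, Ccl2 (2.52), Ccl6 (1.95) and Ccr2 (2.67) with DESeq2, and Ccl2 (2.89), Ccl7 (3.90), Ccl6 (2.32) and Ccr2 (3.06) when adjusted over the genes tested. In TSP1ΔPf4 mice they were Ccl6 with TMM (1.58) and DESeq2 (1.58), Ccr2 with DESeq2 (1.92), and Ccl2 (2.26), Ccl6 (1.24) and Ccr2 (1.60) when adjusted over the genes tested. On AMLN, Ccl2 lost its call with all 16 mice in 1 fit (-2.42, adjusted p = 0.116 in edgeR) and Ccl6 with TMM (-1.26, adjusted p = 0.0564 in edgeR). The cause was not tested.

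With each mouse left out in turn, the number called was 2 to 61 for diet in TSP1F/F, 1 to 182 for diet in TSP1ΔPf4, 22 to 84 for genotype on AMLN and 0 to 24 for the interaction. Log2 fold changes ranged from 1.83 to 2.92 for Ccl6 and 3.45 to 8.83 for Ccl7 (diet, TSP1F/F), from 1.86 to 4.30 for Ccl2 and 1.26 to 2.42 for Ccr2 (diet, TSP1ΔPf4), from -3.80 to -1.39 for Ccl2 on LF, and on AMLN from -2.74 to -1.89 for Ccl2, -1.81 to -1.08 for Ccl6 and -1.47 to -0.66 for Ccr2. Reversals occurred on LF for Ccl6 (-0.74 to 0.10) and Ccr2 (-0.53 to 0.61), and in the interaction for Ccl2 (-1.04 to 1.40) and Ccl7 (-5.47 to 0.41), where Ccl6 ran from -1.68 to -0.59 and Ccr2 from -1.80 to -0.65. Correlated pairs past the threshold numbered 0 to 1, and the r with the library total ran from -0.681 to -0.201 for Ccl2, -0.371 to 0.0589 for Ccl7, -0.720 to -0.353 for Ccl6 and -0.640 to -0.155 for Ccr2. Ccl7 on LF is limited by counts of 0 to 11.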
